A study of Mus musculus with 12 samples.

Results

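The 8 genes described here are Paneth cell products of the mouse small intestine: 4 alpha-defensins (Defa17, Defa21, Defa22 and Defa24), the lysozyme Lyz1, the metalloproteinase Mmp7, the angiogenin Ang4 and the intelectin Itln1. They were chosen by name, and all 8 were among the 17175 genes of the deposited table. RNA came from the proximal or the distal small intestine of wild-type (WT) mice or of mice labelled Bmpr1a cKO, a conditional knockout of one of the type I receptors through which bone morphogenetic proteins (BMPs) signal, with 3 libraries in each of the 4 groups. The series is about how BMP and Wnt signals set the length of villi along the small intestine. Strain, age, sex, the Cre driver and the place of each cut along the intestine are not given in the sources used here, nor is any treatment, and what the WT mice carried is given only as WT. The number in a library's name (WT1, cKO1 and so on) is shared between segments, and nothing else in the labels says which libraries came from 1 animal.

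Paneth cells sit at the base of the crypts of Lieberkühn, beside the stem cells, and release granules of antimicrobial proteins into the crypt lumen. In the mouse, alpha-defensins are made as inactive precursors, and Mmp7 (matrilysin) cuts them to the active peptides. Lyz1 cleaves the peptidoglycan of bacterial walls, Ang4 is a secreted ribonuclease of the angiogenin family with antimicrobial activity, and Itln1 is a lectin that binds microbial sugars. Ang4 and Itln1 are also found in goblet cells. Paneth cells depend on Wnt signals, and their number is known to increase towards the ileum.

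The alpha-defensin genes stand close together on chromosome 8 and are near copies of one another, which bears on how reads can be divided between them. The coding sequences below (282 bases each, GENCODE M21 on GRCm38, 5′ to 3′) are shown because the 4 genes fall into 2 pairs by sequence, and these pairs also differed in their values. Capitals mark the bases that differ within a pair.
Defa21: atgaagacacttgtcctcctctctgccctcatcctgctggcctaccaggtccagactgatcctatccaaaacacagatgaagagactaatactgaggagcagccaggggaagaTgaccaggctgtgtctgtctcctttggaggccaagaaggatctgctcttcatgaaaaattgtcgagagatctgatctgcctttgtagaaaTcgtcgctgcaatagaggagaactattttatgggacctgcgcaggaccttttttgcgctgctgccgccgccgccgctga
Defa22: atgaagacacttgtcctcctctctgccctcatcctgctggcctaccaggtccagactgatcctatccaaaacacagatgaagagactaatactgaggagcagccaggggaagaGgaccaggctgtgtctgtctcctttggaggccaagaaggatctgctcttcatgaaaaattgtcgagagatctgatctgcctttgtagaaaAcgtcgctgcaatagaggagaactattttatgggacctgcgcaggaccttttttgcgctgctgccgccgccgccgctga
Defa24: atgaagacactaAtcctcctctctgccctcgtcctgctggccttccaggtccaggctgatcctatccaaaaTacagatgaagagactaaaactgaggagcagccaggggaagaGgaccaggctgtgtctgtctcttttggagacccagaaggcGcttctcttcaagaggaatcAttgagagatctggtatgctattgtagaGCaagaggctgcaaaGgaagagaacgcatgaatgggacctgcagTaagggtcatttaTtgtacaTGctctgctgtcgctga
Defa17: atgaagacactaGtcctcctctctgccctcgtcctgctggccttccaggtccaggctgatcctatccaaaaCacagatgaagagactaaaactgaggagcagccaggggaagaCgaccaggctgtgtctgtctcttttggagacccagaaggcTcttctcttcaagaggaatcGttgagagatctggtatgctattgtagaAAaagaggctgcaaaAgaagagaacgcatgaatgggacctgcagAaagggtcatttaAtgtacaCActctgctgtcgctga
Defa21 and Defa22 differed at 2 of 282 coding bases (99.3% identity), and Defa17 and Defa24 at 12 (95.7%). Between the pairs, identity was 81.1 to 82.9%. Defa17 had the same coding sequence as Defa3 (0 differences over 282 bases), a defensin outside the set.

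Because of such copies, the value of a single defensin is uncertain where reads could have been split or dropped. Of all 100-base stretches of the Defa17 transcript, 90.6% also occur in the transcript of another gene, against 40.4% for Defa21, 40.3% for Defa22 and 0.0% for Defa24. For 50-base stretches the shares were 92.0% for Defa17, 72.9% for Defa21, 74.9% for Defa22 and 28.1% for Defa24. Lyz1 has a near copy in its neighbour Lyz2, the lysozyme of macrophages. Of Lyz1's 100-base stretches, 2.1% occur in the transcript of another gene, and of its 50-base stretches 16.1%. The share of 100-base stretches was 2.6% for Mmp7 and 0.0% for both Ang4 and Itln1. For 50-base stretches it was 7.4% for Mmp7, 4.7% for Ang4 and 1.0% for Itln1. Read length and the treatment of reads that map to several genes are not given in the sources used here. On GRCm38, Defa21 lies at chr8:21025545-21026516, Defa22 at chr8:21162277-21163249, Defa17 at chr8:21655780-21656735 and Defa24 at chr8:21734494-21735471, all on the plus strand. Lyz1 (chr10:117287797-117292868), Ang4 (chr14:51763878-51773590) and Itln1 (chr1:171518122-171535294) lie on the minus strand, and Mmp7 (chr9:7692090-7699585) on the plus strand. Every position given is that of the whole gene, exons and introns together.

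The stretch upstream of the gene was also compared between the 2 kinds of defensin. RefSeq start-site windows on GRCm38.p6 were found for 6 of the 8 genes (not for Defa17 and Defa24) and for 8 of the 15 named alpha-defensins in the table, so Defa30, whose coding sequence is 98.6% identical to that of Defa24, is shown beside Defa21. Both are on the plus strand of chromosome 8 and run from 150 to 21 bases before the start site. Capitals mark ATCAAAG, the reverse complement of CTTTGAT, which is a core sequence of the kind bound by Tcf/Lef factors, the nuclear partners of Wnt signalling.
Defa21 (chr8:21025395-21025524): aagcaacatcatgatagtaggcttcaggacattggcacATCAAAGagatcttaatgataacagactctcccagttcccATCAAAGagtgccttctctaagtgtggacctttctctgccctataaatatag
Defa30 (chr8:21134500-21134629): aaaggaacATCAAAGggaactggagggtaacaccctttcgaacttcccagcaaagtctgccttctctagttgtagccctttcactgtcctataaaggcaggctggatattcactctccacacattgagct
The 250 bases upstream of Defa21 and Defa22 were identical, and those of Defa21 and Defa30 were 62.4% identical when aligned end to end. However, the windows of Defa21 and Defa30 are not in register. That of Defa30 ends at 21134649, past the annotated gene start at 21134642. That of Defa21 ends at 21025544, before the gene start at 21025545. The 62.4% thus counts unmatched ends as differences, and distances to the start cannot be compared between these 2 genes. The letters CTTTGAT or ATCAAAG (7 bases, both strands searched) occurred at 112 and 72 bases before the start of Defa21 and of Defa22, and at 142 bases before that of Defa30. Of 32851 RefSeq windows of 250 bases, 3.21% held at least 1 match and 0.082% held 2 or more. Among the other defensins with a window, Defa2, Defa20, Defa32 and Defa35 held 2 matches and Defa28 held 1. The 250 bases upstream of Defa2 and of Defa20 were 98.0% identical to those of Defa21. For Defa32 the identity was 96.4% and for Defa35 81.1%. Matches in such near copies are not independent of one another. No match stood in the windows of Lyz1, Mmp7, Ang4 and Itln1. A match is a stretch of letters, and binding was not measured.

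The libraries held 11242024 to 17722756 recovered reads. Values are the authors' scaled read counts: reads + 1 divided by a size factor, so that 1 read is worth about 1. Bmpr1a, counted over the whole gene, did not separate the genotypes: it was 940 ± 145 (SD, n = 3) in WT and 943 ± 130 in cKO proximal libraries, and 532 ± 96.6 and 555 ± 98.7 in the distal ones. A count over the whole gene does not show whether an exon was removed, so it does not check the genotype labels. Reads of mitochondrial genes made up 17.4 to 26.0% of WT proximal, 22.3 to 37.7% of WT distal, 9.75 to 14.8% of cKO proximal and 9.95 to 27.7% of cKO distal libraries. In tissue RNA, fewer Paneth cells and less RNA per Paneth cell cannot be told apart. Nothing in the labels says that the 3 libraries of a group are separate animals, so p-values measure the spread between these libraries.

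All 8 genes were higher in the distal than in the proximal segment by their estimates, in both genotypes. In WT, 6 of the 8 passed the test (Defa21, Defa22, Ang4, Mmp7, Lyz1 and Defa24; limma, adjusted p under 0.05 over all genes), where 11.9% of all genes were called higher. In cKO, 4 passed (Defa21, Defa22, Ang4 and Mmp7), against 4.16% of all genes. With the name shared between segments as a block, all 8 passed in both genotypes, against 14.4% of all genes in WT and 6.25% in cKO. The median log2 fold change of the 8 was 2.76 in WT and 2.50 in cKO, beside 0.05 and -0.02 over all genes. Distal and proximal values did not overlap for 4 of the 8 in WT (19.2% of all genes did not overlap in this direction) and for 8 of the 8 in cKO (13.9%). Leaving out 1 library moved the WT count to 3 without WT proximal 1 or without WT distal 2.

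Defa21 and Defa22 had the largest segment differences of the 8, with 2 to 56 reads in each proximal library. Defa21 had a scaled read count of 9.47, 61.7 and 39.8 in the 3 WT proximal libraries and of 1624, 12360 and 9199 in the WT distal ones. In cKO it was at 13.1, 32.8 and 8.39 proximally and at 1339, 1565 and 3772 distally. The lowest distal library of either genotype thus stood far above the highest proximal one. The ratio of the group means was 209-fold in WT and 123-fold in cKO, and the log2 fold change was 7.57 ± 0.76 (SE, limma adjusted p = 1.21e-05) and 6.92 ± 0.76 (adjusted p = 4.11e-05). Defa22 was at 5.26, 47.1 and 61.3 in WT proximal libraries and reached 1525, 11390 and 9203 in WT distal ones. In cKO, Defa22 was at 3.03, 13.8 and 25.2 proximally, where the lowest library rests on 2 reads, and at 1270, 1440 and 3454 distally. Its log2 fold changes of 7.67 ± 0.91 (WT, limma adjusted p = 4.97e-05) and 7.32 ± 0.91 (cKO, adjusted p = 0.000118) were close to those of Defa21. Both genes passed the test in both genotypes under all 24 alternative settings.

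Defa24 and Defa17 were expressed in both segments. Defa24 stood at 1018, 2052 and 3723 in WT proximal and at 2849, 16230 and 16380 in WT distal libraries, so that the lowest distal library lay within the proximal range. Its ratio of means was 5.22-fold (log2 fold change 2.20 ± 0.62 SE, limma adjusted p = 0.0198). The cKO libraries had 731, 1070 and 1325 proximally and 2442, 2932 and 7151 distally, a 4.01-fold ratio without overlap that did not pass (adjusted p = 0.0734 by limma) and passed with the block (adjusted p = 0.000606). Defa17 read 91.6, 295 and 606 in WT proximal, and 281, 1465 and 2130 in WT distal libraries. Its cKO values were 93.9, 136 and 66.2 proximally and 252, 435 and 686 distally. Its distal ratios of 3.90-fold in WT (limma adjusted p = 0.0668) and 4.64-fold in cKO (adjusted p = 0.0722) missed the threshold and passed with the block (0.000925 and 0.000679). Since Defa17 shares its coding sequence with Defa3, its values may hold reads of both.

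**Figure D1:**
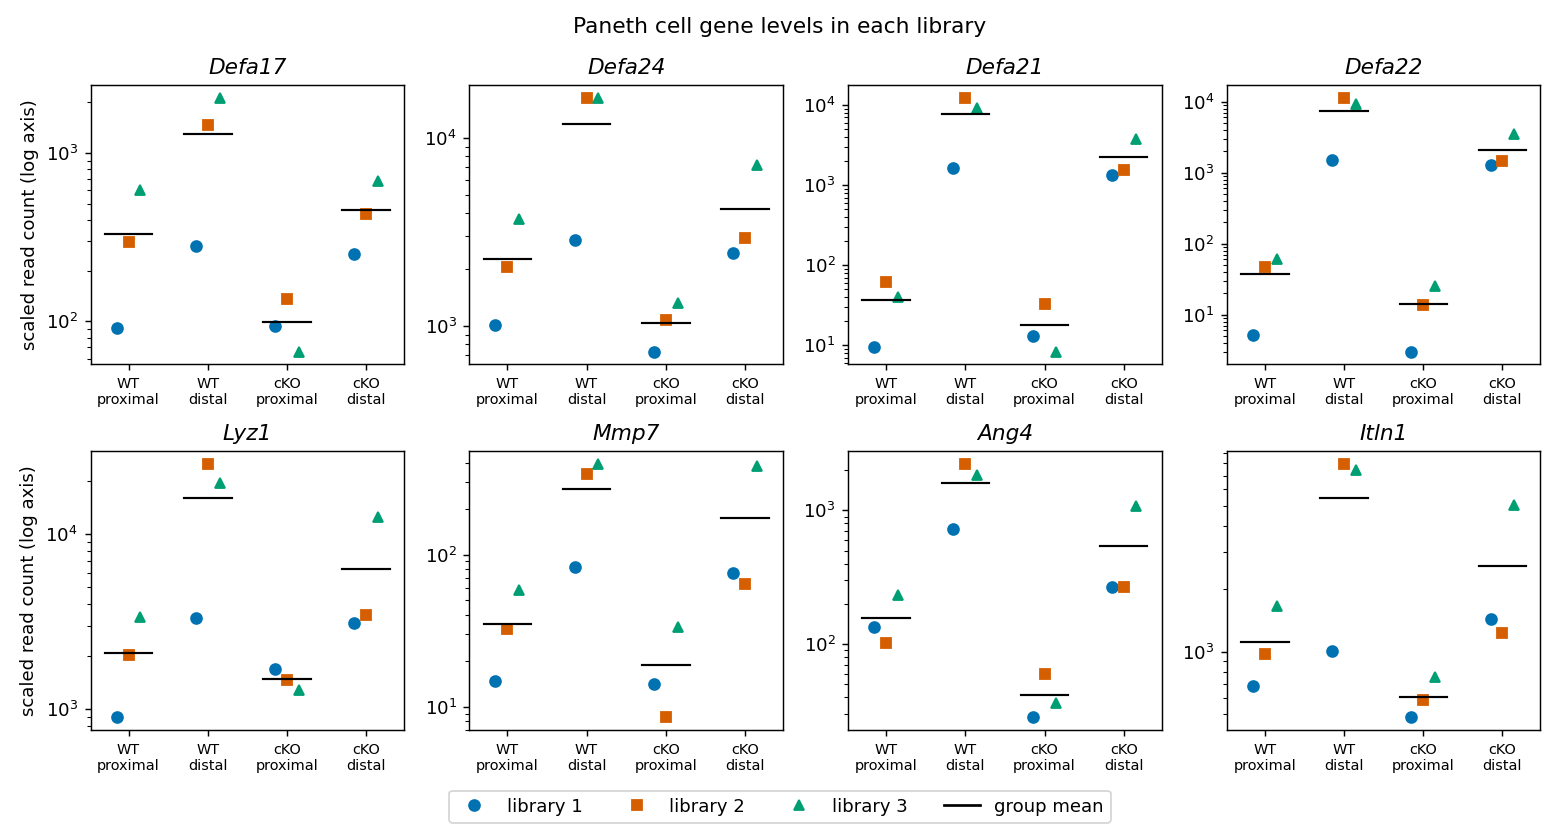
Scaled read counts (log axis) of the 8 genes in each of the 12 libraries, by genotype and segment; symbols mark the library number and the bar is the group mean. Defa21 and Defa22 lie at 61.7 or less in every proximal library and at 1270 or more in every distal one. Mmp7 is as low proximally but rises less, and the other 5 genes stand at 28.3 or more in every library.

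Lyz1 was at 896, 2032 and 3353 in WT proximal libraries and at 3302, 25220 and 19560 in WT distal ones. The ratio of means was 7.66-fold (log2 fold change 2.69 ± 0.69 SE, limma adjusted p = 0.0119), although the lowest distal library overlapped the proximal range. In cKO, Lyz1 was at 1683, 1475 and 1288 proximally and at 3088, 3461 and 12460 distally, a ratio of 4.28-fold (limma adjusted p = 0.122, and 0.0119 with the block). Mmp7, which activates the defensin precursors, was present at a far lower level. Its values were 14.7, 32.6 and 58.0 in WT proximal and 82.8, 336 and 396 in WT distal libraries, and 14.1, 8.48 and 33.6 in cKO proximal and 75.2, 63.9 and 383 in cKO distal ones. Distal values exceeded proximal ones without overlap in both genotypes, with log2 fold changes of 2.83 ± 0.75 (WT, limma adjusted p = 0.0143) and 2.86 ± 0.75 (cKO, adjusted p = 0.0258).

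Ang4 had the largest segment estimate of the 8 after Defa21 and Defa22. It was at 134, 102 and 233 in WT proximal and at 731, 2241 and 1836 in WT distal libraries, with a log2 fold change of 3.29 ± 0.53 (SE, limma adjusted p = 0.000629). The cKO libraries had 28.3, 59.3 and 36.4 proximally and 269, 266 and 1079 distally, with a log2 fold change of 3.40 ± 0.53 (limma adjusted p = 0.000829). The segments did not overlap in either genotype, and Ang4 passed in both under all 24 alternative settings. Itln1 was at 685, 974 and 1665 in WT proximal and at 1013, 7985 and 7414 in WT distal libraries, and the groups overlapped through WT distal 1. Its values in cKO were 484, 586 and 758 proximally and 1430, 1235 and 5059 distally. The log2 fold changes of Itln1, 1.92 ± 0.68 in WT (limma adjusted p = 0.0541) and 1.79 ± 0.68 in cKO (adjusted p = 0.115), passed with the block (0.00355 and 0.00934).

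Per kilobase of exon, the order of the mean scaled counts differed between the segments. This measure corrects for gene length, but not for reads split or dropped between near copies. The share of 100-base stretches found in other genes was 0.0% for Defa24, 40.4% for Defa21, 40.3% for Defa22 and 90.6% for Defa17. Such sharing can shift a defensin's place in the order, and whether it does so by a like amount in every library was not tested. An order that is the same in every library thus does not show that it is free of such a shift. In WT distal libraries Defa24 came first with 28210 per kilobase, rank 13 among 17158 genes with a known length. Defa21 (18480, rank 20), Defa22 (17600, rank 21) and Lyz1 (12690, rank 31) followed. Levels differed several fold between these libraries, but the order of the 4 was the same in 3 of 3. Within a library, the log2 ratio per kilobase was 0.68 ± 0.25 (SD, n = 3) for Defa24 to Defa21, 0.48 ± 0.03 for Defa22 to Lyz1 and 1.44 ± 0.16 for Lyz1 to Itln1, and the small ratio of Defa21 to Defa22, 0.07 ± 0.06, was about the size of its spread. Itln1 had 4794 per kilobase, Defa17 had 3255, Ang4 had 2261 and Mmp7 had 254, and the order of Defa17 and Ang4 held in 2 of 3 libraries (0.24 ± 0.80). In WT proximal libraries Defa24 again led with 5404 per kilobase, ahead of Lyz1 (1658), Itln1 (971), Defa17 (834) and Ang4 (220). Defa22 and Defa21 had 90.4 and 88.5 per kilobase there, ranks 5182 and 5249, and Mmp7 had 32.9, rank 8415. The orders of Defa22 and Defa21 (-0.21 ± 0.75) and of Itln1 and Defa17 (0.50 ± 0.77) were not beyond their spread there.

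The make-up of the alpha-defensin pool changed along the intestine more steadily than its size. The summed scaled count of the 15 named alpha-defensins was 1529, 3635 and 6472 in WT proximal libraries and 9768, 63460 and 59220 in WT distal ones, so the distal libraries differed among themselves several fold. Defa24 made up 60.2 ± 5.55% (SD, n = 3) of that sum in WT proximal libraries and 27.5 ± 1.80% in WT distal ones. The share of Defa21 was 0.978 ± 0.624% proximally and 17.2 ± 2.03% distally, and that of Defa22 was 0.863 ± 0.482% and 16.4 ± 1.37%. Defa17 had 7.83 ± 1.71% and 2.93 ± 0.646%. For each of these 4 genes the proximal and distal shares did not overlap in WT. In cKO the shares were of like size: Defa24 had 67.2 ± 9.99% proximally and 29.6 ± 1.51% distally, and Defa21 had 1.16 ± 0.676% and 15.9 ± 0.832%. The shares of Defa17 overlapped between the segments in cKO (8.05, 7.63 and 3.92% proximally, 3.08, 4.14 and 2.96% distally). These shares depend on how reads of near copies were assigned.

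**Figure D2:**
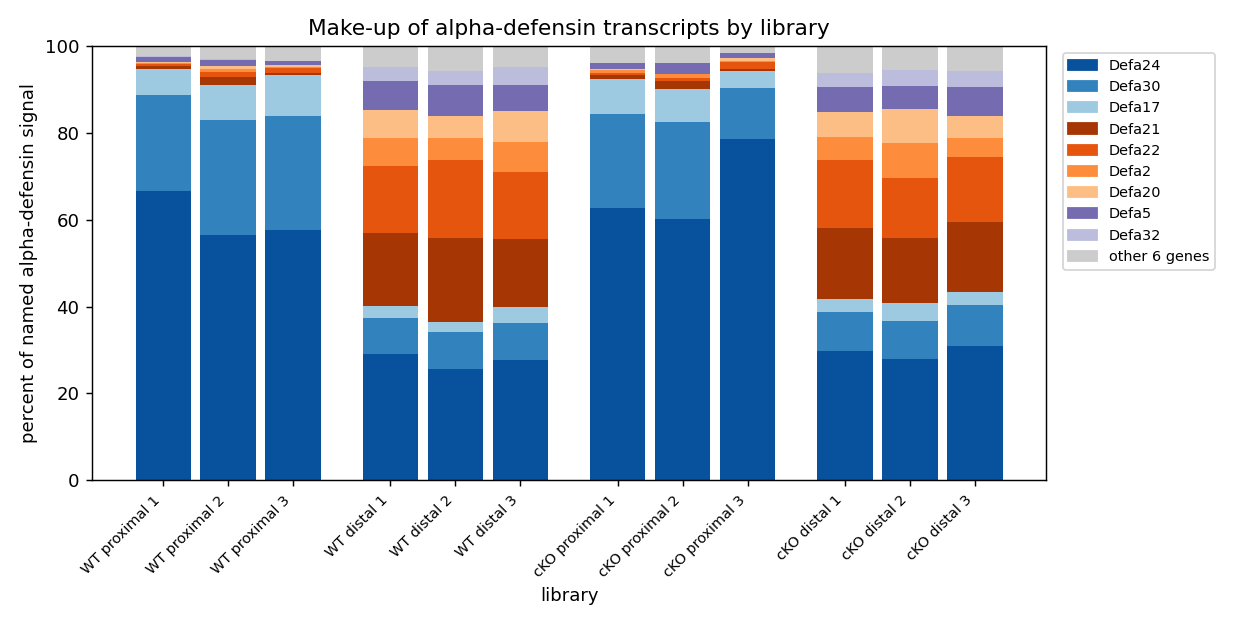
Percent of the summed scaled count of 15 named alpha-defensins contributed by each gene, 1 bar for each library. Defa24, Defa30 and Defa17 (blue) fill most of each proximal bar, and Defa21 and Defa22 each fill 13.7 to 19.5% of each distal bar.

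Defensins outside the set showed segment differences of both sizes. In WT, the distal-to-proximal ratio of means was 144-fold for Defa2 (18.6 ± 10.7 to 2666 ± 1830 scaled counts), 161-fold for Defa20, 62.8-fold for Defa5 and 34.3-fold for Defa29. Defa32 went from 3.68 ± 3.65 to 1580 ± 1096 in WT. In cKO it had 0 reads in all 3 proximal libraries and a mean of 497 in the distal ones, at least 165.5-fold higher when set against a floor of 3 reads per library. Defa30, the near copy of Defa24, was higher by 3.75-fold in WT (1003 ± 684 to 3763 ± 2571, limma adjusted p = 0.0801), which did not pass. The predicted defensin Gm14851 (795 ± 558 to 3524 ± 2508, adjusted p = 0.0805 by limma) and AY761184 (679 ± 496 to 2107 ± 1606, adjusted p = 0.235) did not pass either. Of the other defensins with an upstream window, Defa35 (2 CTTTGAT matches) and Defa28 (1 match) had 0 to 3 reads in each WT proximal library, so no fold is given for them. These near-identical genes are not independent of one another.

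In a wider list of other Paneth cell products, 20 of 51 genes had a row in the table. In WT, 14 of the 20 were called higher in the distal segment and 0 lower, with a median log2 fold change of 2.80, where 11.9% of all genes were called higher. In cKO, 12 were called higher and 0 lower, against 4.16% of all genes. Mptx2, a mucosal pentraxin, was among them (107 ± 72.8 to 1027 ± 831 in WT, limma adjusted p = 0.0322). Along the same axis other cell markers moved too. Of 15 proliferation genes, 13 were called higher in WT distal libraries, and of 15 villus enterocyte genes, 9 were called lower and 0 higher, where 12.2% of all genes were called lower. The summed count of the enterocyte genes was 602600 to 895000 in WT proximal libraries and 234100 to 571400 in WT distal ones. The part of these differences in the Paneth cell values was not tested.

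Between the genotypes, the 8 genes were lower in cKO by their estimates, and 1 passed the test in each segment. In the proximal segment, Ang4 was the gene called, where 4.05% of all genes were called lower. In the distal segment Ang4 was again the only one of the 8 called, against 11.7% of all genes. A count of 1 in 8 is near these backgrounds. In the same distal comparison, 8 of 15 proliferation genes were called lower (15 of 15 estimates below 0), and 6 of 15 villus enterocyte genes were called higher and 1 lower. Proximally 0 of the proliferation genes were called, and of the enterocyte genes 1 was called lower. The part of these in the Paneth cell values was not tested. The median log2 fold change of the 8 was -0.93 proximally and -1.25 distally, beside 0.08 and 0.06 over all genes. Groups did not overlap for 1 of the 8 proximally (Ang4, where 13.3% of all genes were lower without overlap) and for 0 of the 8 distally (15.9%). The estimates of the 8 are not 8 separate observations, since libraries that were high or low for one gene were mostly so for the others.

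For Ang4 the cKO proximal values of 28.3, 59.3 and 36.4 all lay below the WT values of 134, 102 and 233, with a ratio of means of 0.264 and a log2 fold change of -1.87 ± 0.53 (SE, limma adjusted p = 0.0457). Distally the ratio was 0.336 (log2 fold change -1.76 ± 0.53, limma adjusted p = 0.0271). There the library cKO distal 3, at 1079, exceeded WT distal 1, at 731. The proximal call held under 11 of 24 alternative settings and was lost when any 1 of the 6 proximal libraries, or WT distal 2, was left out. Under 1 of the 24 settings, the gene called proximally was Defa17 and not Ang4. The distal call held under 18 of 24 and was lost without WT distal 2, without WT distal 3, without cKO distal 1 or without cKO distal 2. Both calls were also lost with the mitochondrial share of each library as a covariate and without both cKO libraries numbered 1. Adjusted p over the alternatives was 0.00547 to 0.275 proximally and 0.00231 to 0.343 distally.

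**Figure D3:**
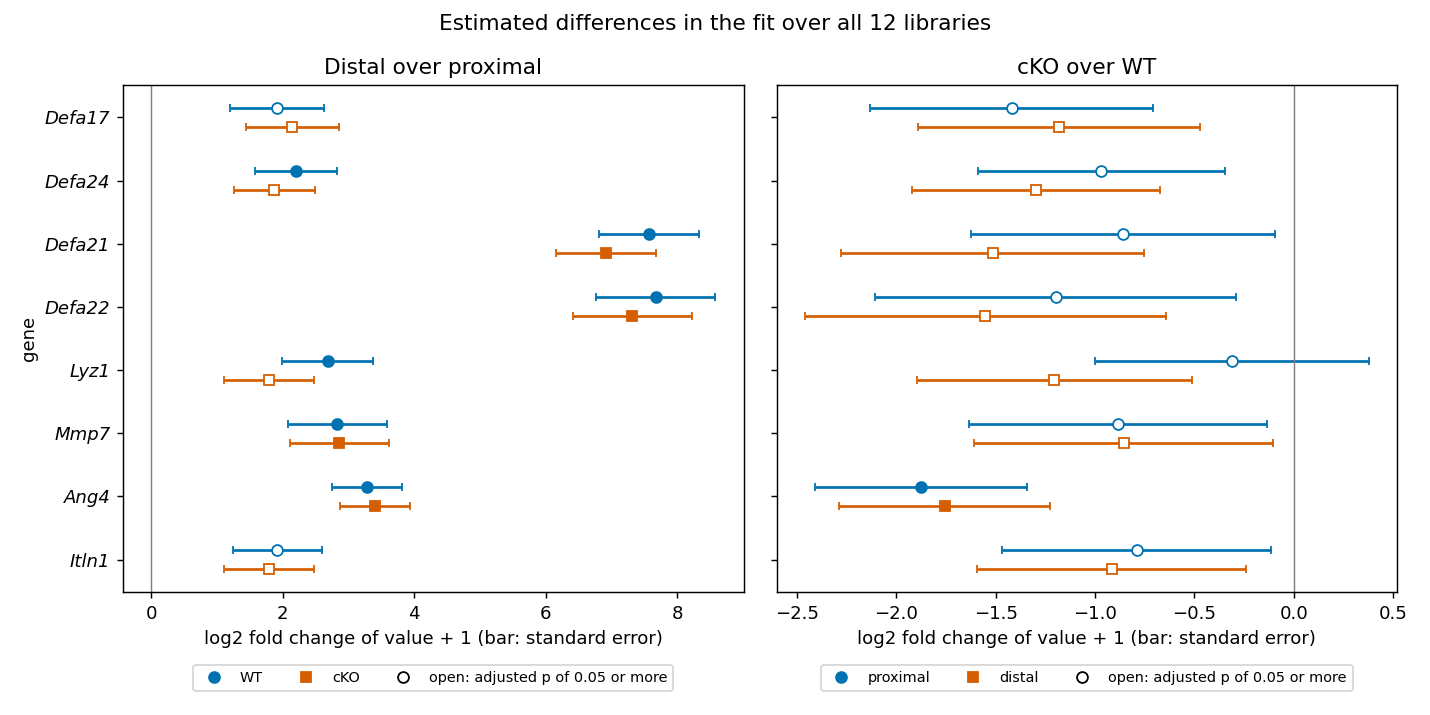
Estimated log2 fold changes of the 8 genes with standard errors; left, distal over proximal in WT and cKO; right, cKO over WT in each segment. Filled symbols passed an adjusted p of 0.05. All distal-over-proximal estimates lie above 0, and all cKO-over-WT estimates lie below 0, but only Ang4 is filled on the right.

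In the main fit, the other 7 genes did not pass in either segment. Defa17 had the lowest proximal ratio of cKO to WT after Ang4, 0.298 (log2 fold change -1.42 ± 0.71 SE, limma adjusted p = 0.232), and Lyz1 had the highest, 0.708 (-0.31 ± 0.69, adjusted p = 0.817). Distally, Defa22 stood at 0.279 (log2 fold change -1.55 ± 0.91, limma adjusted p = 0.235), Defa21 at 0.288 (-1.52 ± 0.76, adjusted p = 0.168) and Mmp7 at 0.640 (-0.85 ± 0.75, adjusted p = 0.444). With standard errors of 0.62 to 0.91, differences of the size estimated could not be separated from the spread between libraries. The difference of the genotype effects between the segments passed for 0 of the 8 (0.576% of all genes passed by limma). It had 0 unadjusted p-values under 0.05 and 0 calls by edgeR or DESeq2, and its estimates ran from -0.89 for Lyz1 to 0.24 for Defa17.

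Most of the distal spread came from 2 libraries. WT distal 1 was the lowest of its group for 8 of the 8 genes, and WT distal 2 exceeded it by a median of 6.58-fold (3.07 to 7.88). cKO distal 3 was the highest of its group for 8 of the 8, by a median of 3.23-fold over cKO distal 1 (2.72 to 5.09). By the median of the 8 genes, WT distal 1 was close to cKO distal 1 and 2. These stood at medians of 0.877 (0.368 to 1.41) and 0.996 (0.365 to 1.55) of its values. Single genes differed more: Ang4 was at 269 and 266 in them, against 731 in WT distal 1. Without WT distal 1, 6 of the 8 were called lower in distal cKO libraries, against 10.5% of all genes. Without both WT libraries numbered 1, which was chosen after seeing the data, 7 of the 8 were called, against 10.9%. Without WT distal 2, WT distal 3, cKO distal 1 or cKO distal 2, 0 were called. WT distal 1 also had the highest mitochondrial share of all 12 libraries (37.7%), and cKO distal 3 had a higher one (27.7%) than the other cKO distal libraries (11.5% and 9.95%). The summed counts of 15 macrophage genes were highest in WT distal 1, at 28100, against 15160 and 8299 in the other WT distal libraries. The WT distal libraries with the high Paneth cell values each stood apart in a different list. In WT distal 2, 12 pancreatic acinar genes summed to 1424, against 91.3 in WT distal 1 and 144 in WT distal 3. In WT distal 3, 15 villus enterocyte genes summed to 571400, against 234100 and 263300. In cKO distal 3 these sums were 451 and 652900, against 353 and 969100 in cKO distal 1 and 397 and 563400 in cKO distal 2. The part of these measures in the Paneth cell values was not tested.

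Relative to Lyz1 in the same library, the other 7 genes varied less than their levels in the distal libraries, but not in all groups. The SD of the log2 ratio was below that of the log2 level for 7 of 7 genes in both distal groups, for 6 of 7 in WT proximal and for 2 of 7 in cKO proximal libraries. In WT distal libraries, where Lyz1 differed by 7.64-fold, the log2 ratio of Defa21 to Lyz1 was -1.02, -1.03 and -1.09, and that of Defa22 to Lyz1 was -1.12, -1.15 and -1.09. In cKO distal libraries the Defa21 ratios were -1.21, -1.15 and -1.72. The same ratio of Defa21 in WT proximal libraries was -6.56, -5.04 and -6.40, and cKO proximal libraries had -7.00, -5.49 and -7.26. The distal-minus-proximal difference of this ratio averaged 5.09 ± 0.73 (SD over 6 shared names) for Defa21, 5.40 ± 1.48 for Defa22 and 1.13 ± 0.74 for Ang4, and was above 0 in 6 of 6 names for each. It was -0.20 ± 0.72 for Defa17, -0.20 ± 0.63 for Defa24, 0.67 ± 0.78 for Mmp7 and -0.38 ± 0.65 for Itln1. An exact sign-flip permutation test over the 6 names (two-sided) gave p = 0.03125, the smallest it can give, for Defa21, Defa22 and Ang4, and 0.0729 after Benjamini-Hochberg adjustment over the 7 ratios, so none passed. To pass, most of the 7 ratios would have had to reach that smallest p. The test thus could not decide on a few ratios, whatever their size. For Defa17, Defa24, Mmp7 and Itln1 the exact permutation p was 0.125 to 0.562. Ang4 relative to Lyz1 was -3.63 ± 0.81 (SD, n = 3) in WT and -5.23 ± 0.63 in cKO proximal libraries, without overlap, and -3.03 ± 0.74 and -3.58 ± 0.10 in the distal ones, where the groups stood apart by the gap between WT distal 2 at -3.49 and cKO distal 1 at -3.52.

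**Figure D4:**
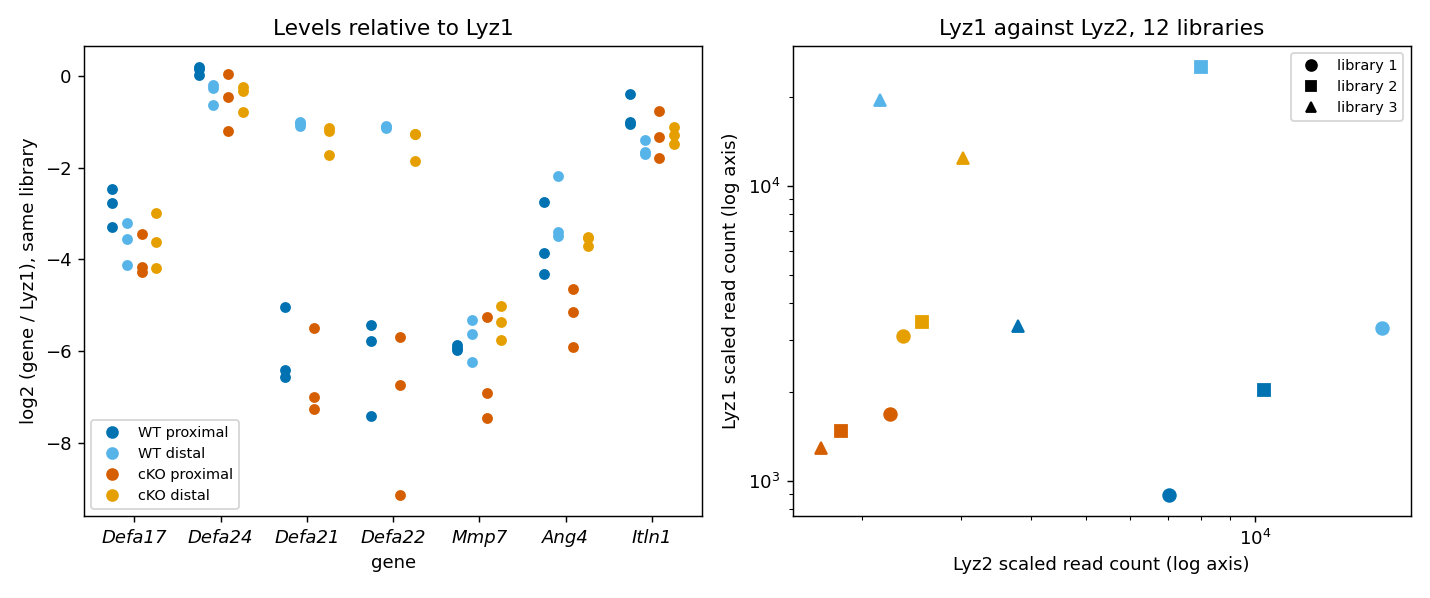
Left, log2 ratio of 7 genes to Lyz1 in the same library, by group; right, Lyz1 against Lyz2 scaled read counts (log axes) in the 12 libraries, with the same colours. Defa21 and Defa22 lie between -9.12 and -5.04 in proximal libraries and between -1.85 and -1.02 in distal ones, and Lyz1 and Lyz2 do not follow each other.

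Lyz2, whose coding sequence is 95.1% identical to that of Lyz1, followed another pattern. It was at 16810, 8022 and 2159 in WT distal libraries, where Lyz1 was lowest in the first. In WT proximal libraries it was at 7013, 10350 and 3792. In cKO it was at 2244, 1835 and 1692 proximally and at 2364, 2559 and 3031 distally. The ratio of cKO to WT means was 0.273 proximally (limma adjusted p = 0.0600) and 0.295 distally (adjusted p = 0.0895), neither of which passed, and the segments did not differ detectably in WT (log2 fold change 0.03 ± 0.54). Of 15 macrophage genes, Lyz2 among them, 8 were called lower in cKO proximally and 6 distally, with 0 higher. Of all genes, 4.05% were called lower proximally and 11.7% distally. C1qa, a complement component of tissue macrophages, fell from a mean of 1481 to 273 proximally (log2 fold change -2.43, limma adjusted p = 0.000763) and from 1171 to 289 distally (-2.06, adjusted p = 0.000468). The summed macrophage count was 15370 to 21790 in WT and 5498 to 7138 in cKO proximal libraries.

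Goblet cell genes, listed because Ang4 and Itln1 are not limited to Paneth cells, had 0 calls lower in cKO in either segment. Of 14 measured, 1 was called higher proximally and 3 distally, where 4.21% and 13.3% of all genes were called higher. Spink4 was called higher in both segments. Its log2 fold change was 1.80 proximally (limma adjusted p = 0.00168) and 1.70 distally (adjusted p = 0.00052). By their estimates, however, 12 of the 14 were below 0 proximally, among them Clca1 (log2 fold change -0.62, limma adjusted p = 0.335), whose groups did not overlap, and Zg16 (-0.72, adjusted p = 0.294), both picked after their values were seen. Distally 13 of the 14 were above 0. The part of goblet cells in the Ang4 values was not tested. Their summed count overlapped between genotypes in both segments (185700 to 358700 in WT and 153900 to 241700 in cKO proximal libraries). Among the other Paneth cell products, 1 of 20 was called lower in cKO proximally and 2 distally, with 0 higher, which is near the shares of all genes called lower (4.05% and 11.7%). By their estimates, 17 of the 20 were below 0 in each segment. Their median log2 fold change was -0.81 proximally and -1.32 distally, beside 0.08 and 0.06 over all genes. Near copies among them are not independent of one another. Gm15292, a predicted gene of the defensin cluster, went from a mean of 18.1 to 2.71 proximally (limma adjusted p = 0.0215) and from 158 to 35.2 distally (adjusted p = 0.0239), and Gm7849 was under 10 in every group mean.

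Genes of Paneth cell specification and of the crypt niche moved in both directions between genotypes. Of 32 measured, 3 were called higher and 1 lower in cKO proximally, and 9 higher and 4 lower distally, where 4.21% and 13.3% of all genes were called higher and 4.05% and 11.7% lower. Ephb2, a Wnt target receptor that positions cells in the crypt, rose from a mean of 148 to 478 proximally (log2 fold change 1.70, limma adjusted p = 0.000676) and from 200 to 664 distally (1.75, adjusted p = 9.92e-05). Fzd5, the Wnt receptor needed for Paneth cell maturation, rose from 980 to 2613 proximally (1.42, limma adjusted p = 0.00997) and from 1155 to 3597 distally (1.62, adjusted p = 0.00118). Cd24a, a surface protein of Paneth cells and of other crypt and blood cells, fell from 4833 to 2096 proximally (-1.15, limma adjusted p = 0.0279). Distally, Tcf4, a basic helix-loop-helix factor not to be confused with Tcf7l2, fell from 501 to 178 (-1.48, limma adjusted p = 0.000203), and the Notch ligand Dll1 rose from 171 to 699 (2.09, adjusted p = 0.000322). The place of Tcf4 in this list is doubtful. It is nevertheless counted in the 32 genes, in the distal calls lower and in the WT calls below. Tcf7l2 was not called distally (0.60, limma adjusted p = 0.0903). The other proximal call was Pnliprp2 (higher). The other distal calls were Pnliprp2, Dll4, Slc30a2, Slc30a7, Agr2 and the secretory cell factor Xbp1 (log2 fold change 0.83, limma adjusted p = 0.0138), all higher, and Cd24a, Habp2 and Bhlha15, another factor of secretory cells (-1.82, adjusted p = 0.00892), all lower. In WT, 3 of the 32 were called higher distally and 4 lower, near the shares of all genes (11.9% and 12.2%). In a separate list of 15 stem cell genes, 3 were called higher and 3 lower in cKO proximally, and 5 higher and 3 lower distally. Aqp4 and Smoc2 were among the higher ones in both segments. For Aqp4 the log2 fold change was 3.60 proximally (limma adjusted p = 0.000832) and 2.34 distally (adjusted p = 0.0032). For Smoc2 it was 2.35 proximally (limma adjusted p = 0.00258) and 2.74 distally (adjusted p = 0.000178). Axin2, a Wnt target like Ephb2, was among the lower ones in both segments. Its log2 fold change was -2.40 proximally (limma adjusted p = 0.00181) and -1.88 distally (adjusted p = 0.00215).

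Across the 12 libraries, the profiles most like those of the 8 genes were mostly those of other defensins. Likeness was the root mean square difference of log2 values after centring each gene, over 13745 genes with a mean of at least 10. For Defa17 the closest gene outside the set was Defa30 (0.217), and Defa30 was also the closest to Defa24 (0.396), Lyz1 (0.550) and Itln1 (0.523). Defa2 was the closest to Defa21 (0.503) and Defa20 to Defa22 (0.636). Slc10a2, the ileal bile acid transporter, was the third for Defa22 (1.02), and the only gene outside the defensin family among the 3 closest to Defa21 or Defa22. Mmp7 was closest to Defa26 (0.697) and Ang4 to Gm15292 (0.444). Within the set, Defa24 and Itln1 were the closest pair (0.291), and Defa22 and Itln1 the farthest apart (2.92). These distances are a description of 12 libraries that share segment and genotype, and reads of near copies make some of these genes alike by construction.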

How the data were processed

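The 8 genes, the gene lists and the alternatives were chosen with earlier results of these data known. The authors deposited 1 table of scaled read counts, a signal per gene and library. The submitters' processing notes name the build mm10, STAR and DESeq2 1.28.1; the labels' protocols name Trizol extraction and the Ovation RNA-Seq System V2 kit. All 206100 deposited values were whole multiples of a step per library (within 0.001 steps), so whole reads were recovered as value divided by step, minus 1. The log2 fold change, its standard error, a score and p-values that the authors deposited, for 1 contrast of their own, were not used.

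The main test was limma 3.58.1 (R 4.3.3; empirical Bayes with trend) on log2(value + 1), with 4 group means, 12 libraries in one fit and Benjamini-Hochberg adjustment over 17175 genes. A fold change on this scale understates that of low genes. The ratios of means are of the values as deposited. The fit was tested on simulated data with the same relative spread set for every gene and no shifts shared by genes of a library. It was thus not tried at the spread of these 8 genes. Alternatives were pseudocounts of 0.5 and 5, a mean of at least 10, TMM factors, edgeR 4.0.16 and DESeq2 1.42.0 on recovered reads, voom, only the groups compared, a mitochondrial covariate, replicate blocks and left-out libraries. Libraries with the same number deviated together between segments (correlations of 0.314, 0.173 and 0.308 in WT and of 0.158, 0.215 and 0.323 in cKO) and share a name in the labels, so the segment comparisons are also given with that name as a block. Named besides the 8 were the 3 genes with the smallest p per list and comparison, other Paneth cell products with a group mean over 1000, the 3 genes with the closest profile, and Lyz2; from lists beside the main results only some are printed. Sequences are from GENCODE M21 (GRCm38) and RefSeq (GRCm38.p6).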

Additional observations from a re-analysis of the deposited data

How the results depend on the processing

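Over 24 alternative settings, 952 estimates were recomputed for the 8 genes: 837 kept direction and side of the threshold, 34 lost a call, 48 gained one and 33 changed sign. For cKO against WT, proximal, the count of genes called (1) became 0 with a pseudocount of 5, with edgeR, with voom, with the mitochondrial share as covariate and without both cKO libraries numbered 1, and was 0 to 1 when single libraries were left out. For cKO against WT, distal, the count (1) was 2 with DESeq2, 0 with the mitochondrial covariate, 0 without both cKO libraries numbered 1, 7 without both WT libraries numbered 1 (chosen after seeing the data) and 0 to 6 when single libraries were left out. For distal against proximal the count was 3 to 8 with single libraries left out in WT (6) and 3 to 8 in cKO (4); in cKO it was 8 with DESeq2, with only the groups compared, without both WT libraries numbered 1 and with the replicate block. The difference of genotype effects had 0 calls throughout. The cause of these changes was not tested.

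Between genotypes the shared number is only a number: same-numbered libraries correlated at -0.148, -0.081 and -0.113 proximally and at -0.103, 0.049 and -0.121 distally, with 0 and 1 of 6 libraries closest to their own number. With it as a replicate block, the count was 1 proximally and 3 distally (Ang4, with Defa22 at adjusted p = 0.0188 and Defa24 at 0.0180, by limma). In the segment comparisons the block changed no call beyond those given with the results.

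Changes of sign concerned the difference of genotype effects and, once, Lyz1 in cKO against WT, proximal (-0.31; -0.825 to 0.127 with single libraries left out). For the difference, the ranges with single libraries left out were -0.786 to 0.539 for Mmp7, -0.552 to 0.456 for Ang4, -1.56 to 0.101 for Defa21, -1.27 to 0.687 for Defa22, -1.17 to 0.153 for Defa24, -1.10 to 0.388 for Itln1 and -0.644 to 0.970 for Defa17. That of Mmp7 was also -0.085 with a pseudocount of 5, -0.108 with voom and -0.179 without both WT libraries numbered 1, where that of Ang4 was -0.304. TMM factors moved the median of all genes in cKO against WT, proximal, from 0.08 to -0.02 and changed no direction among the 8 there. Genes under about 10 reads, such as Defa22 in cKO proximal 1, are limited by depth. Summed over the 15 named alpha-defensins, in place of single genes whose reads may be divided between copies, mean scaled counts were 3879 ± 2480 (SD, n = 3) in WT proximal, 44150 ± 29850 in WT distal, 1543 ± 330 in cKO proximal and 13940 ± 8058 in cKO distal libraries, the same order as for each of the 4 defensins in the set.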
